A study of Mus musculus with 20 samples.

Results

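Utp14a and Utp14b, a parent gene on the X chromosome and its retrogene, a copy made through RNA, on chromosome 1, were followed through mouse preimplantation development. They were chosen as all probe sets that the platform's gene annotation assigns to either symbol. This gave 3 of 22511 probe sets other than controls: 1435099_at and 1432250_at for Utp14a and 1438579_at for Utp14b. All 3 passed the filter on dim probe sets. The pair was chosen on its intensities over the 5 stages in these same arrays, with the 2-cell peak of Utp14b in view, so its levels and changes are given as a description, with no test.

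Expression was measured on 20 Affymetrix MOE430B arrays, with 4 arrays for each of 5 stages: mouse oocyte, 1-cell, 2-cell and 8-cell embryo, and blastocyst. All groups share 2 rounds of amplification of total RNA by in vitro transcription, and no agent or genotype separates them in the labels. The sources used here give no strain, age or collection time. They also do not say whether the 4 arrays of a stage are independent collections, so spreads and p-values cover these samples only and may be technical. Values are the authors' linear intensities, in arbitrary units. Brightness differs between probes, so levels are compared between stages of 1 probe set and never between probe sets.

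Utp14 proteins are parts of the small subunit processome, the large nucleolar complex built on the U3 small nucleolar RNA. It folds and cuts the precursor of 18S ribosomal RNA, and Utp14 is known as the partner that activates the helicase Dhx37. In male germ cells, where the X chromosome is silenced at meiosis, the retrogene is known to supply this function. Loss of mouse Utp14b, the juvenile spermatogonial depletion mutation, stops spermatogenesis. Ribosomal RNA synthesis is largely silent in the full-grown oocyte and the zygote and resumes from the 2-cell stage.

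The retrogene lies inside another gene. In the RefSeq gene table of GRCm38.p6 the Utp14b model lies within that of Acsl3, a long-chain acyl-CoA synthetase, on the same strand, and both models begin at the same base. RefSeq holds 2 Utp14b transcripts, and the start used in its promoter table lies 615 bases downstream of the Acsl3 start. The windows around the starts, from 250 bases before to 50 after, are shown because parent, retrogene and host gene had different courses over the stages. They are from RefSeq, build GRCm38.p6, at chrX:48256684-48256983 for Utp14a, chr1:78658190-78658489 for Utp14b and chr1:78657575-78657874 for Acsl3, all on the plus strand. Capitals mark matches on either strand to 5 motifs. These were TATAAA of the TATA box, GGGCGG of the GC box, CCAAT of the box of that name, CGGAAG of the ETS family core and TAATCC of OBOX or OTX type homeobox factors.
Utp14a: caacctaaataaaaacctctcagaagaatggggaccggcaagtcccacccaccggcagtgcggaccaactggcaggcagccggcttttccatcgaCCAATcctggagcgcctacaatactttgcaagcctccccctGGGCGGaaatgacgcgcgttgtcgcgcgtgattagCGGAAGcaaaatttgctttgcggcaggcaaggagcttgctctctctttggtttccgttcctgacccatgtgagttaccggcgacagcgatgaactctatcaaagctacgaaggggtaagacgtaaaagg
Utp14b: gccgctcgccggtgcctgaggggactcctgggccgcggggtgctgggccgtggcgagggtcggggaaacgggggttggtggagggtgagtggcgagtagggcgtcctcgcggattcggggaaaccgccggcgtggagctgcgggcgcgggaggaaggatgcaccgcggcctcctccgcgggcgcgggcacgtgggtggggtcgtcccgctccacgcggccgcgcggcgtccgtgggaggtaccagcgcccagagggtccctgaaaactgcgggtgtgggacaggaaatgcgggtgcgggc
Acsl3: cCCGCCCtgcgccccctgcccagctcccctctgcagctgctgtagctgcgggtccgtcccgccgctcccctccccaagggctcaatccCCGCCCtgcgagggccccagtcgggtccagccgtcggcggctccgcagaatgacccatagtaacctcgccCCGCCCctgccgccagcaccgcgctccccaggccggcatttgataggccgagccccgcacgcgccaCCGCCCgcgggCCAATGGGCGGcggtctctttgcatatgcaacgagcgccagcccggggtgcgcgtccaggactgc

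The Utp14a window held 1 CCAAT box at -155, 1 GC box at -114 and 1 ETS core at -79, counted from the start. The Acsl3 window held 5 GC boxes and 1 CCAAT box, the last GC box directly following the CCAAT box without overlap. None of these motifs was found in the Utp14b window. Of 32851 promoters of the same length, 35.7% held the GC box, 37.4% the CCAAT box, 16.9% the ETS core, 13.6% the TATA box and 7.06% the homeobox site. G and C made up 75% of the Utp14b window, 74.0% of the Acsl3 window and 54.7% of the Utp14a window, against a median of 52.7% over all promoters. CpG dinucleotides numbered 40, 33 and 21, against a median of 7. A match is a description of letters and not of a bound site, and the arrays do not tell which Utp14b start was used.

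Utp14b was brightest at the 2-cell stage and lower at all other stages. Its probe set 1438579_at read 403.4, 456.5, 478.0 and 446.9 in the 4 oocyte arrays. It read 378.1, 319.9, 469.2 and 507.3 at the 1-cell stage. These arrays overlapped fully, and the stage means of 446.2 ± 31.4 (SD, n = 4) and 418.6 ± 85.3 differed by -0.11 on the log2(value + 20) scale, less than the spread between arrays. At the 2-cell stage the same probe set read 5410.6, 5065.9, 6402.3 and 5806.5. Every 2-cell array lay above every array of the other stages, with a ratio of means of 13.5 to the 1-cell stage and 12.7 to the oocyte. Among all 15234 probe sets tested, 13.4% had all 4 of the 2-cell arrays above all 4 of the 1-cell arrays. The log2 difference was 3.71 (SE 0.16), the 82nd highest of that step.

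By the 8-cell stage most of the Utp14b signal had gone. The arrays read 547.5, 887.9, 1032.4 and 1212.5, a mean of 920.1 ± 282. All lay under the 2-cell arrays, as for 13% of probe sets tested, and all above the oocyte and 1-cell arrays. The mean was 6.16 times lower than at the 2-cell stage, a log2 difference of -2.65 (SE 0.25). In blastocysts the values were 368.2, 523.8, 417.6 and 647.0, overlapping both the 8-cell and the oocyte arrays. Relative to its 2-cell mean the probe set stood at 16.2% at the 8-cell stage and at 8.63% in blastocysts, against 7.87% in oocytes and 7.38% at the 1-cell stage. Taking the smaller of the log2 differences to the 1-cell and to the 8-cell stage as the size of a 2-cell peak, 33 of 15234 probe sets, or 0.217%, had a peak of at least that size, Utp14b included. The pair was chosen with this peak in view, so this share and the rank of the rise are a description only.

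**Figure D1:**
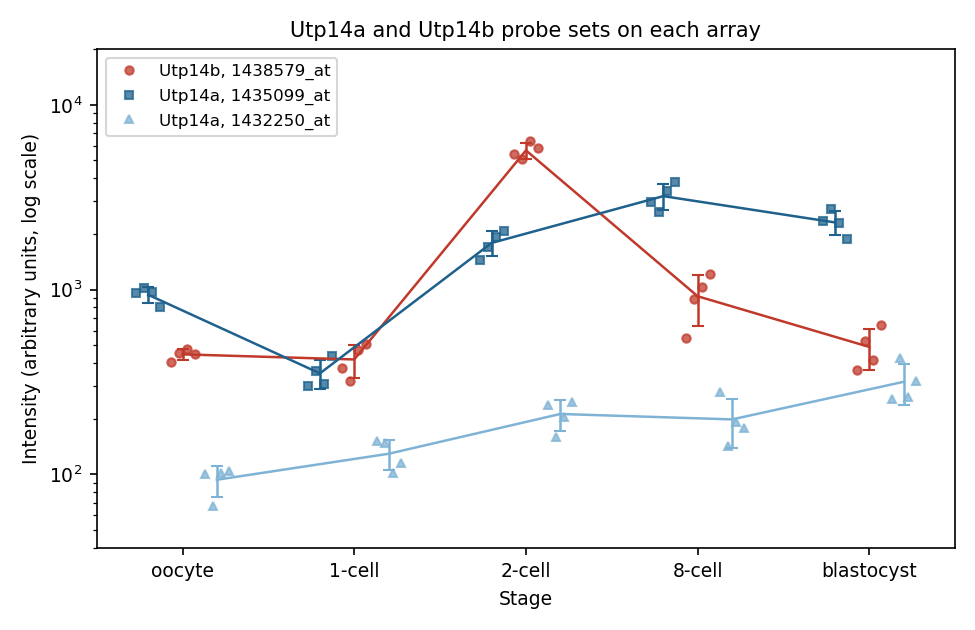
Intensity (arbitrary units, log scale) of the Utp14b probe set 1438579_at and the Utp14a probe sets 1435099_at and 1432250_at by stage, with points for the 4 arrays of each stage, lines through the stage means and bars of 1 SD. Utp14b stands at 5671 ± 574 at the 2-cell stage and at 1212.5 or less on all arrays of other stages, whereas 1435099_at is highest at the 8-cell stage; heights of different probe sets are not comparable.

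Utp14a, read by its brighter probe set, had another course, with a low at the 1-cell stage and a high at the 8-cell stage. Probe set 1435099_at read 957.4, 1015.4, 971.2 and 805.7 in oocytes. At the 1-cell stage it read 301.3, 363.7, 306.9 and 436.0, with no overlap. The mean went from 937.4 ± 91.2 to 352 ± 62.7, which is 2.66 times lower and a log2 difference of -1.37 (SE 0.14). All 4 of the 1-cell arrays lay under all 4 oocyte arrays for 6.96% of the probe sets tested. At the 2-cell stage the values were 1443.6, 1706.4, 1923.1 and 2081.4, above every oocyte and 1-cell array. All 4 of the 2-cell arrays lay above all 4 oocyte arrays for 14% of the probe sets tested. The mean of 1789 ± 277 was 5.08 times that of the 1-cell stage and 1.91 times that of the oocyte.

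Utp14a by 1435099_at was higher still after the 2-cell stage, where Utp14b was lower. At the 8-cell stage the arrays read 2964.7, 2621.7, 3411.4 and 3825.3. All lay above the 2-cell arrays, as for 15.7% of probe sets tested, and the mean of 3206 ± 525 was 1.79 times higher, a log2 difference of 0.83 (SE 0.16). Blastocyst arrays read 2341.4, 2719.2, 2292.3 and 1886.6. They overlapped both the 8-cell and the 2-cell arrays, and lay above every oocyte array with a ratio of means of 2.46. From high to low the order was thus 8-cell, blastocyst, 2-cell, oocyte and 1-cell. The blastocyst did not separate from either neighbour in this order, and the oocyte and 1-cell stages stood apart from each other and from the rest. For Utp14b the order was 2-cell, 8-cell, blastocyst, oocyte and 1-cell, and the last 3 did not separate from one another, nor the blastocyst from the 8-cell stage.

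The second Utp14a probe set was dim and had no low at the 1-cell stage. Probe set 1432250_at read 100.7, 67.0, 101.7 and 104.4 in oocytes, near the table's median intensity of 82.6. It read 151.9, 146.9, 102.2 and 115.8 at the 1-cell stage, overlapping the oocytes at the edge. Thus the lower 1-cell level seen with 1435099_at was absent here, and the means differed by 0.40 log2 units in the other direction. The 2-cell values of 238.4, 159.1, 203.8 and 247.4 lay above all earlier arrays. The 8-cell values of 280.5, 142.4, 193.1 and 177.1 overlapped them. Blastocysts were highest at 255.9, 428.5, 263.6 and 319.5, overlapping the 8-cell stage only. Both Utp14a probe sets were higher in blastocysts than in oocytes without overlap, by 1.28 log2 units for the brighter and 1.56 for the dimmer, as 20.2% of all probe sets tested were. Over the 5 stage means their Pearson correlation was 0.67, a description over 5 points. Which transcripts each probe set reads, and whether a Utp14a probe also binds Utp14b RNA, was not tested, since probe sequences were not used here.

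Set against each other, retrogene and parent, the latter read by 1435099_at, differed most in the step from the 2-cell to the 8-cell stage. The difference of the log2 values of 1438579_at and 1435099_at was taken on each array and set to 0 at the oocyte mean, so that probe brightness cancels. It was 1.27 ± 0.31 (SD, n = 4) at the 1-cell stage, where Utp14b kept its oocyte level and Utp14a did not. At the 2-cell stage it was 2.70 ± 0.19, with all arrays between 2.51 and 2.93. At the 8-cell stage it was -0.79 ± 0.39 and in blastocysts -1.18 ± 0.48, and arrays of these stages overlapped. All 4 arrays of the 2-cell stage lay above those of every other stage. From 2-cell to 8-cell the log2 change of Utp14b less that of Utp14a was -3.48 (SE 0.22). From 1-cell to 2-cell it was higher by 1.43 (SE 0.18). With the mean of both Utp14a probe sets in place of the brighter, the 1-cell difference shrank to 0.38 and the step from 1-cell to 2-cell grew to 2.25. The dimmer 1432250_at alone changed by 0.40, 0.64 and -0.11 log2 units into the 1-cell, 2-cell and 8-cell stages. Utp14b changed by -0.11, 3.71 and -2.65 in these steps. Against 1432250_at the 1-cell difference thus had the other sign, and the step from 1-cell to 2-cell was the largest. Within stages, deviations of the pair from their stage means had a Pearson correlation of 0.24 over 20 arrays, given as a description.

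**Figure D2:**
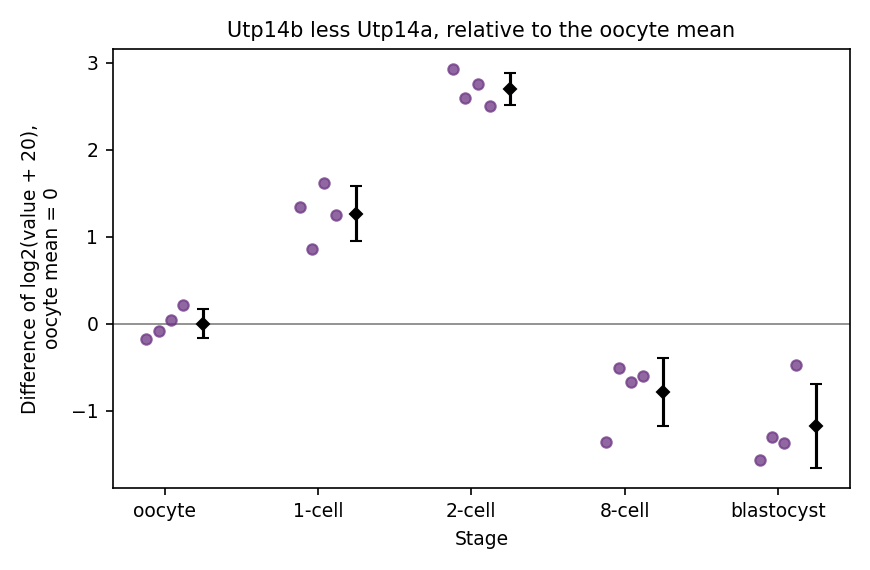
Difference between the log2(value + 20) of Utp14b (1438579_at) and Utp14a (1435099_at) on each array, by stage, with the oocyte mean set to 0. Circles are arrays, and diamonds with bars are the mean and SD of 4 arrays; the 2-cell arrays lie between 2.51 and 2.93 and the 8-cell arrays between -1.36 and -0.51.

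Marker genes were compared with the stage labels, and not all followed them. The summed intensity of the 9 oocyte markers on the array, among them Zar1, Bmp15, Padi6 and Oosp3, was 108277 to 133913 in oocytes. It was 111759 to 129904 at the 1-cell stage, within the oocyte range, and 36793 to 82372 at the 2-cell stage. Single markers differed from the sum. From oocyte to 1-cell the mean of Padi6 went from 18815 to 5731, whereas that of Oog3 went from 12289 to 20223. Wee2 went from 7956 in oocytes to 13296 at the 2-cell stage. The sum was 5812 to 6632 at the 8-cell stage and 21067 to 25759 in blastocysts. Khdc3, on the same list, made up most of the last, with 2305 ± 358 in oocytes and 20822 ± 2274 in blastocysts. That of 2 activation markers, Obox6 and Ubtfl1, was 45.1 to 119.3 at the 1-cell and 11690 to 13969 at the 2-cell stage. The sum was higher still, 17305 to 22944, at the 8-cell stage, but the markers went opposite ways. Obox6 went from 7828 ± 800 at the 2-cell stage to 17576 ± 2807, whereas Ubtfl1 went from 4557 ± 588 to 1376 ± 240. That of 4 trophectoderm markers reached 12903 to 18381 in blastocysts, and stood at 1463 or less before. That of 4 inner cell mass markers was 4169 to 12323 in blastocysts and 1924 or less before, mostly from L1td1, whereas Esrrb and Gata6 of this list were highest at the 8-cell stage. For the 5 sperm and spermatid markers measured, the sum was 310.1 to 1031 over all stages. It was 311 to 663 at the 1-cell and 627.2 to 802.8 at the 2-cell stage. The 5 cumulus and granulosa markers summed to 899.7 to 1333 in oocytes and 1-cell embryos and to 2598 to 3232 at the 2-cell stage. Most of the latter came from Amhr2, which went from 167 ± 37.6 to 2053 ± 284. The control probe set for the middle of 18S ribosomal RNA went from 650.2 ± 197 in oocytes to 37007 ± 4510.1 in 1-cell embryos and 2004 ± 308 in 2-cell embryos. It was thus highest where 1435099_at was lowest, and its part, like that of the markers, in the courses of Utp14a and Utp14b was not tested. In whole embryos, fewer cells of a type and less RNA per cell cannot be told apart.

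Acsl3, the gene around Utp14b, had no probe set that passed as rising at the 2-cell stage, and all 3 of its probe sets were lower in blastocysts than in oocytes. It was not used to choose the pair, and was tested by limma over all 15234 probe sets. Probe set 1452771_s_at read 3902 ± 373 (SD, n = 4) in oocytes, 4591 ± 229 at the 1-cell, 2515 ± 712 at the 2-cell, 671.5 ± 108 at the 8-cell stage and 874.1 ± 435 in blastocysts. From 1-cell to 2-cell, the step into the Utp14b peak, it fell by 0.90 log2 units (SE 0.24, limma adjusted p = 0.00711). In that step 1423 probe sets (9.34%) fell and 1859 (12.2%) rose at an adjusted p under 0.05. With each array centred on its median, which lowers the median change of this step by 0.18 (shift of -0.18), 1985 fell and 1357 rose. The 4 single values at the 2-cell stage, 3465.2, 1878.2, 2074.0 and 2644.1, all lay under the 1-cell arrays, as for 10.5% of probe sets. With quantile normalization between arrays that change was -0.44 and did not pass (limma adjusted p = 0.262). Probe sets 1428386_at and 1428387_at did not pass in this step, with log2 changes of -0.41 (limma adjusted p = 0.291) and 0.31 (limma adjusted p = 0.333). The latter had its highest mean at the 2-cell stage, 733.3 ± 103, and its 4 arrays there, 637.5 or more, lay above the 1-cell arrays, 630.7 or less, as for 13.4% of probe sets.

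All 3 Acsl3 probe sets fell from the 2-cell to the 8-cell stage, as 13.4% of all probe sets did. The changes were -1.85 (limma adjusted p = 1.48e-06) for 1452771_s_at, -1.71 (limma adjusted p = 4.56e-07) for 1428387_at and -0.76 (limma adjusted p = 0.0278) for 1428386_at. The last call was lost without 2-cell replicate 2 (limma adjusted p = 0.0908) or 4 (limma adjusted p = 0.0855), and without 8-cell replicate 1 (limma adjusted p = 0.127) or 2 (limma adjusted p = 0.0547). None passed between the 8-cell stage and the blastocyst. Over the whole course from oocyte to blastocyst they fell by 2.06, 1.59 and 2.25 log2 units for 1428386_at, 1428387_at and 1452771_s_at, with limma adjusted p = 3.56e-07, 8.12e-07 and 3.51e-08. Utp14b over the same span differed by 0.10. The 2 genes overlap on 1 strand, so a probe in shared sequence would read both. The s_at type of 1452771_s_at marks probes that can match more than 1 transcript.

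**Figure D3:**
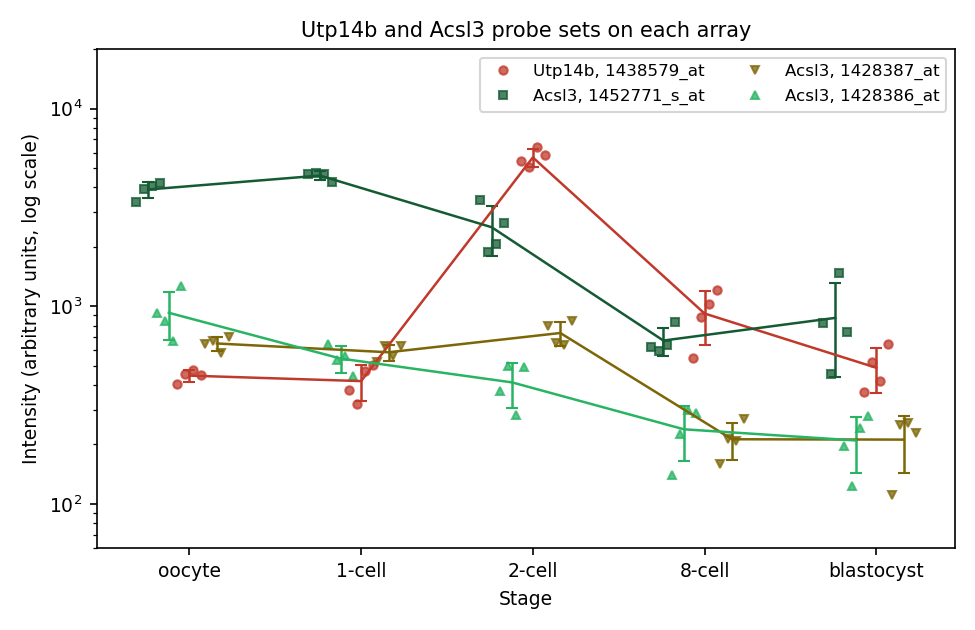
Intensity (arbitrary units, log scale) of Utp14b and of the 3 Acsl3 probe sets by stage, with points for the 4 arrays of each stage, lines through the means and bars of 1 SD. Acsl3 probe set 1452771_s_at goes from 4591 ± 229 at the 1-cell to 2515 ± 712 at the 2-cell stage while Utp14b goes from 418.6 ± 85.3 to 5671 ± 574; heights of different probe sets are not comparable.

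Next to Utp14a on the X chromosome, 3 of the 10 nearest protein-coding genes, 5 on each side, had probe sets: Ocrl, an inositol phosphatase, Zdhhc9, a palmitoyltransferase, and Bcorl1, a corepressor. By limma 0 of their 6 probe sets rose from the 1-cell to the 2-cell stage (1 at an unadjusted p under 0.05), a share that is near the 12.2% of all probe sets at so small a number. Ocrl probe set 1438396_at instead fell from 163 ± 36.3 to 68.6 ± 27.4, a log2 change of -1.08 (limma adjusted p = 0.00184). It then rose to 163.3 at the 8-cell stage and 432.8 in blastocysts, with limma adjusted p = 0.00156 and 0.000368. The other Ocrl probe sets did not fall at the 2-cell stage (changes of 0.04 and 0.60 log2 units). Bcorl1 probe set 1438469_at fell from 200 ± 101 at the 2-cell to 30.7 ± 5.4 at the 8-cell stage, by 2.01 log2 units (limma adjusted p = 0.000103), and 1454172_at of the same gene did not pass (change of -0.11). Zdhhc9 passed in no step. Of 13 other pairs of an X-linked parent and an autosomal retrogene, none had probe sets for both genes. The parent Cstf2, a 3' end cleavage factor, changed by -0.39 at the 2-cell stage (limma adjusted p = 0.0609). The retrogenes Glt28d2 and Prps1l1 changed by -0.08 and 0.91 log2 units (limma adjusted p = 0.88 and 0.144). Rbmxl2 was too dim to be tested.

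Among the other genes of the processome, rises outnumbered falls into the 2-cell stage and again into the 8-cell stage. Of 61 listed genes other than the pair, 26 were on the array and 25 were tested, each by its probe set with the highest mean. From oocyte to 1-cell, 5 fell and 1 rose by limma, and 19 did not pass, against 4.26% falling and 2.67% rising of all probe sets. Krr1, a processome assembly factor, fell from 1580 ± 64.3 (SD, n = 4) to 302.9 ± 41.8 (log2 change -2.32, limma adjusted p = 1.87e-10). Wdr3 and Tbl3, both of the UTP-B subcomplex, fell from 562.5 ± 83.1 to 215 ± 36.6 and from 380.6 ± 71.6 to 167.8 ± 24.7. Fcf1 and Noc4l fell as well and Nol10 rose, by -2.25, -1.83 and 0.91 log2 units; these 3 were named after their values were seen. The median change of the 25 genes was -0.18, against 0.02 for all probe sets tested.

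From 1-cell to 2-cell, 11 of the 25 rose, 2 fell and 12 did not pass, against 12.2% rising and 9.34% falling of all probe sets. The median change was 0.58 against 0.07. Those with the smallest p were Wdr3, Krr1, Tsr1, Nob1, Pdcd11 and Tbl3. Wdr3 rose by 3.35 log2 units to 2392 ± 531 (limma adjusted p = 2.07e-12) and Tsr1, a late factor of small subunit assembly, by 3.08 to 3892 ± 941 (limma adjusted p = 3.32e-12). Nob1, the nuclease that makes the mature 3' end of 18S ribosomal RNA, rose from 194.1 ± 71.0 to 1812 ± 263, and Pdcd11 from 185.8 ± 51.7 to 1137 ± 278. Bms1, a GTPase of the processome, fell from 14309 ± 3311 to 6735 ± 1054 (log2 change -1.07, limma adjusted p = 0.000688). Its probe set is of the s_at type, as are those of Krr1 and Tsr1, and that of Noc4l is of the x_at type. Dhx37, the helicase that Utp14 activates, read 117.8 ± 45.7 and 143.6 ± 21.5 and did not pass (limma adjusted p = 0.486).

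From 2-cell to 8-cell, the step in which Utp14b was 6.16 times lower, 11 of the 25 rose by limma, none fell and 14 did not pass, against 14.1% rising and 13.4% falling of all probe sets. At an unadjusted p under 0.05, 1 was lower: Nob1, with a change of -0.47 (limma adjusted p = 0.13). Wdr3 rose to 7260 ± 706 (log2 change 1.61, limma adjusted p = 4.23e-07), Tsr1 to 10136 ± 1452, Krr1 to 4335 ± 370 and Tbl3 to 1619 ± 245. Of the 25 genes 0 rose at the 2-cell stage and then fell at the 8-cell stage by limma. At so small a number this is near the share of all probe sets with that course, 2.35%. At an unadjusted p under 0.05, 1 did so, Nob1. In both steps 7 of the 25 rose, among them Krr1, Tbl3, Tsr1 and Wdr3, against 2.97% of all probe sets. The mean was highest at the 8-cell stage for 13 of the 25 genes and in blastocysts for 8, against 29.5% and 22.7% of all probe sets. It was highest in oocytes for 2, at the 1-cell stage for 1 and at the 2-cell stage for 1, Nob1, against 14.2%, 17.5% and 16.1%. From 8-cell to blastocyst, 9 fell, 0 rose (2 at an unadjusted p under 0.05) and 16 did not pass by limma, against 6.58% falling and 7.98% rising of all. From oocyte to blastocyst 13 rose and 2 fell, against 21.6% (3292 probe sets) and 16.1% (2449). Centring moved these last counts over all probe sets to 2538 and 3083.

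The other arms of ribosome production were counted beside it. Of the RNA polymerase I list 9 genes were on the array, and the 6 that were tested all rose from 1-cell to 2-cell, against 12.2% of all probe sets, with a median of 1.82 log2 units. The count was 5 with median centring, without x_at and s_at probe sets, without 1-cell replicate 1 or 2 and without 2-cell replicate 1. They were Cd3eap, Polr1d, Polr2f, Rrn3, Taf1d and Twistnb, named because the list is short. Of these, Rrn3, the initiation factor of RNA polymerase I, changed by -0.42 at the 8-cell stage (limma adjusted p = 0.0442). That call was lost without any 1 of the 2-cell arrays, without 8-cell replicate 1 or 3, and under 4 of 10 other settings. Taf1d and Twistnb rose further by 1.18 and 1.99, in a step with 14.1% of all probe sets rising. Before, from oocyte to 1-cell, 1 of the 6 fell and 0 rose, against 4.26% and 2.67% of all probe sets. The one that fell was Polr1d, with a log2 change of -2.17 (limma adjusted p = 3.49e-06), and its mean was highest in oocytes. Of 18 genes of pre-60S assembly, 6 rose and 2 fell at the 2-cell stage, against 12.2% and 9.34% of all probe sets. At the 8-cell stage 6 rose and 1 fell, against 14.1% and 13.4%. The one that fell was Eif6, which keeps the large subunit from joining the small one, by 0.82 (limma adjusted p = 0.00597) after a rise by 1.90. Neither list held a gene with a fall at the 8-cell stage as large as the log2 difference of -2.65 of Utp14b. At so small a number this is near the share of all probe sets, of which 311 of 15234 fell at least that far, Utp14b included.

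**Figure D4:**
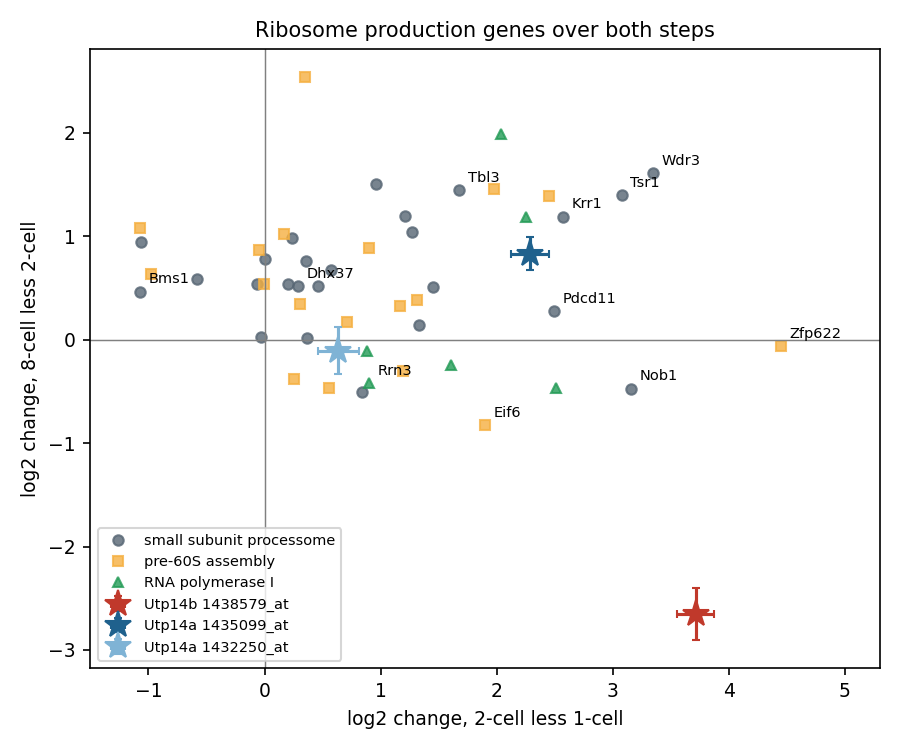
Log2 change from 1-cell to 2-cell (horizontal) against log2 change from 2-cell to 8-cell (vertical) for the 25 small subunit processome, 18 pre-60S and 6 RNA polymerase I genes tested, with stars and SE bars for the Utp14 probe sets. Utp14b lies at 3.71 and -2.65, and Utp14a 1435099_at at 2.28 and 0.83, lower on both axes than Krr1, Wdr3 and Tsr1; both axes share the 2-cell arrays.

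Likeness of course was measured as the Pearson correlation over the 5 stage means, among named probe sets not of the x_at type whose means span at least 1 log2 unit. Stage means of different probe sets come from the same arrays, 5 points give high values easily, and the correlations are a description. For Utp14b, the nearest of 6056 probe sets was Exoc3l2, with a correlation of 0.999. Exoc3l2 read 93.1 ± 20.1 (SD, n = 4) in 1-cell embryos, 2144 ± 353 in 2-cell embryos and 259.2 ± 25.5 in 8-cell embryos. Gm12789 (17.1 ± 13.7, 11373 ± 1883 and 126.5 ± 35.6), Ubfd1, AA414992 and Depdc5 came next, with correlations of 0.998 to 0.993. For 1435099_at of Utp14a the nearest were Kansl3, of a histone acetyltransferase complex, Slc38a9, Socs4, Slc4a11 and Abl1, with correlations of 0.998 to 0.995. Kansl3 read 305.6 ± 51.9 in oocytes, 186.9 ± 58.9 in 1-cell and 638.2 ± 164 in 8-cell embryos. For the dimmer 1432250_at they were Mief2, Zfp800, Jade3, Prtg and Zfp607b, with correlations of 0.997 to 0.992. Within the processome list the course nearest to 1435099_at was that of Wdr3, at 0.984, and the nearest to Utp14b that of Nob1, at 0.768.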

How the data were processed

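Total RNA of 20 samples, 4 per stage, was amplified in 2 rounds and hybridised to Affymetrix MOE430B arrays, per the labels' protocols. The deposited values are linear intensities, 1 per probe set and array, and no source used here gives the software or scaling behind them. Detection calls and probe sequences were not used. Depth has no counterpart on arrays, and their number limits the precision.

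Intensities were taken as log2(value + 20), which understates changes of dim probe sets. Control probe sets were left out, and 15234 probe sets at or above the table median of 82.6 on at least 4 arrays were fitted together with limma 3.58.1 in R 4.3.3 (lmFit, then eBayes with an intensity trend), with 1 mean per stage and Benjamini-Hochberg adjustment over all of them at 0.05. The fit was tested on simulated data for the step from 1-cell to 2-cell, where it recovered 30% of changes of 1 log2 unit and 84% of changes of 2. Far fewer probe sets were changed in the simulation than were called in the data, which makes the adjustment stricter there. The recovery in the real step was thus not measured. Of 22511 probe sets, 14661 had 1 symbol, 245 several and 7605 none in the platform annotation. Symbols were updated through the RefSeq gene table of GRCm38.p6, used for names, neighbours and whether gene models overlap. Promoter sequences came from RefSeq.

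The pair, its gene lists and the motifs were chosen with earlier results of these data known, the motifs also with the sequences seen. Named genes were Acsl3, the neighbours of Utp14a, other retrogene pairs, the processome genes with the smallest p (6 at the 2-cell and 4 at the 8-cell step), Dhx37, Bms1 and Krr1, and the 5 probe sets most like each member. Alternatives were 2 other pseudocounts, 2 other filters, median centring, quantile normalization, the replicate number as a block, no trend, array weights, no x_at or s_at probe sets, and leaving out each array.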

Additional observations from a re-analysis of the deposited data

Results flagged for a closer look

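In 15 of 255 groups of 4 arrays examined, 1 array stood apart from the other 3, by a gap large against the group's range. Chance alone flags about 1 in 20 groups, or 12.75 of 255. Among the Utp14 probe sets this concerned 1432250_at of Utp14a, which read 67.0 in oocyte replicate 2 against 100.7 to 104.4 in the other oocytes. Acsl3 1452771_s_at read 4251.1 in 1-cell replicate 4 against 4680.1 to 4748.8.

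Of the ribosome production genes, Fcf1 read 3406.2 in oocyte replicate 1 against 4987.3 to 5230.3. Noc4l read 1598.1 in 1-cell replicate 1 against 1325.7 to 1362.8, and 2492.5 in blastocyst replicate 1 against 1288.7 to 1493.5. Wdr3 read 3180.1 in 2-cell replicate 3 against 2060.9 to 2233.6. Eif6 read 692.3 in oocyte replicate 2 against 398.5 to 439.0, and Noc2l, a pre-60S factor, 256.0 in 1-cell replicate 4 against 23.6 to 35.6. Zfp622, another factor of the large subunit, read 761.7 in blastocyst replicate 2 against 485.8 to 515.1.

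Of the genes with a like course, Jade3 read 193.4 and Depdc5 262.5 in 2-cell replicate 3, against 254.2 to 262.3 and 412.0 to 431.1. Prtg read 70.6 in oocyte replicate 4 against 11.1 to 16.7, and Slc38a9 read 223.6 in 1-cell replicate 2 against 15.1 to 49.0. Gm12789 read 71.2 in blastocyst replicate 4 against 12.4 to 20.3, and the retrogene Rbmxl2 read 32 in 1-cell replicate 1 against 8.2 to 9.4.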

How the results depend on the processing

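The member changes that exceeded the spread between arrays kept their sign under all settings. Small ones crossed 0: Utp14b between blastocyst and oocyte was -0.09 with median centring and -0.04 without blastocyst replicate 4, Utp14b between 1-cell and oocyte was 0.009 without 1-cell replicate 2, and Utp14a 1432250_at between 8-cell and 2-cell was 0.02 without 8-cell replicate 2. Of 205 values of the pair under other settings 196 stayed within 1 SD of the main value, and all 160 values with an array left out did. The 9 others, all for Utp14a or the difference within the pair, were as follows. With quantile normalization, Utp14a 1435099_at differed by -1.17 between 1-cell and oocyte, 1.17 between 8-cell and 2-cell and 1.69 between blastocyst and oocyte, and with median centring by 1.09 in the last. With a pseudocount of 80 the blastocyst difference of 1432250_at from the oocyte was 1.18. With the mean of both Utp14a probe sets, the change of Utp14b less that of Utp14a was 0.38, 2.25, -3.01 and -0.94 over the 4 steps. Acsl3 1452771_s_at changed by -0.44 at the 2-cell stage with quantile normalization. Acsl3 1428386_at at the 8-cell stage ranged from -0.92 to -0.54 with arrays left out. Among processome genes, 1 rose from 8-cell to blastocyst with a pseudocount of 80, a filter at the 75th percentile, centring or quantile normalization, and 0 or 1 with arrays left out (1 without blastocyst replicate 4). From 2-cell to 8-cell, 1 fell with array weights, and 0 or 1 with arrays left out (1 without 8-cell replicate 4). Without x_at and s_at probe sets, 3 fell into the 1-cell stage, 1 into the 2-cell stage and 0 between oocyte and blastocyst, where fewer genes were tested. The last count was 1 with a pseudocount of 5, without the filter and with the replicate block, and 1 or 2 with arrays left out. The cause of the other differences was not tested. Over all probe sets, 406 rose from oocyte to 1-cell, 612 with array weights and 257 without 1-cell replicate 2. Same-numbered arrays did not deviate together (correlations of -0.062 to 0.063 over 40 pairs). The labels do not say whether equal numbers mark a shared origin, and these correlations cannot settle it. With the replicate block 11 processome genes rose at the 2-cell stage, as without it. Quantile normalization lowered the median change by 0.12 at the 2-cell stage and 0.14 from oocyte to blastocyst (shifts of -0.12 and -0.14). Dim probe sets such as 1432250_at lie near the background of the arrays, whose level is unknown here.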
